A study of Rattus norvegicus with 18 samples.

Results

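Hearts of treated spontaneously hypertensive rats were compared with hearts of normotensive rats, using 12 of the 18 libraries of the series. The 12 were taken by their titles: 6 named QDG, from SHR rats given QDG, and 6 named WKY, from Wistar-Kyoto rats. SHR, the spontaneously hypertensive rat, is an inbred strain selected for high blood pressure, and WKY is the related strain usually set beside it as the normotensive control. The labels call the WKY group normal. They do not expand QDG or NS, the agent given to the remaining 6 SHR libraries, and do not say whether WKY received NS. Strain and QDG treatment both separate the 2 groups compared, so their effects cannot be told apart within this comparison. The SHR libraries given NS are therefore shown beside the values as a reference. Age, sex, dose and length of treatment are not in the labels used here, and the labels do not tie each library to its own animal, so the p-values below reflect variation among libraries, which may be partly technical.

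Hypertension loads the left ventricle with pressure, and the heart of SHR is known for hypertrophy and later fibrosis and failure. SHR and WKY also differ at many places in their genomes that have no known part in blood pressure. Neither blood pressure nor genotype was measured in the files used here. Ribosomal RNA was depleted from the RNA before sequencing, which keeps long noncoding RNAs without a poly(A) tail as well as messenger RNAs.

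The values are in FPKM, fragments scaled to gene length and to library size, for 37262 genes. Of these, 20360 carry rat gene identifiers of Ensembl, mostly annotated genes, and 16902 carry those of NONCODE, a database of noncoding RNAs. The identifiers are not paired with gene names in the files, and 0 of them matched the 47357 genes of the reference table used here. Genes are therefore described by catalogue, level and rank, and 4 are given by identifier. Marker genes of the heart and its cell types could not be looked up, so the labelled tissue was not checked, and in tissue RNA fewer cells of a type and less RNA per cell cannot be told apart.

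The 12 libraries summed to 598626 to 676288 FPKM. Relative depth, estimated from ratios of low values, ran from 0.884 to 1.00 of WKY replicate 1, with the lowest in WKY replicate 5, and absolute depth is unknown. Correlations between log2 values of 2 libraries lay from 0.971 to 0.988 over the 18, and 0 of 153 pairs were identical. WKY replicate 5 stood apart from the other WKY libraries (by Dixon's criterion on the gap to its nearest neighbour) in 653 of the genes tested, against 67 to 213 for the other WKY libraries and 110 to 320 for the QDG libraries. Results that rest on this library are given below with and without it.

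A gene entered the comparison if it reached 1 FPKM in at least 6 of the 12 libraries, which left 16765 genes, 12178 of Ensembl and 4587 of NONCODE. Just inside this limit were 467 genes that reached 1 FPKM in exactly 6 libraries, with a median level of 1.05 FPKM. Just outside were 367 genes that reached it in exactly 5, with a median of 0.964 FPKM. Among the genes kept, 62 reached 1 FPKM in all 6 QDG libraries and in no WKY library, and 51 did so in all 6 WKY libraries and in no QDG library. These 113 genes passed the filter through the group where they are high and had to differ, so they support nothing. They remain in the counts below: all 113 have groups that do not overlap, 112 were called, 64 of them at 2-fold or more and 18 at 4-fold or more.

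The main axis of variation among the 12 libraries ran between treated SHR and WKY. The first principal component of log2(FPKM + 1) held 32.7% of the variance, with the QDG libraries at 18.8 to 22.2 and the WKY libraries at -25.7 to -17.7. No library of one group came near the other. The SHR libraries given NS, which were not used to find the component, projected onto it at 15.0 to 17.2, on the side of the QDG libraries and far from WKY. Libraries left out of such a fit tend to project closer to the centre, so the small step between both SHR groups is not read as a difference. The second component held 14.3% and separated WKY replicate 5, at 35.1, from the other WKY libraries at -18.5 to 8.46 and the QDG libraries at -7.77 to 11.4.

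**Figure D1:**
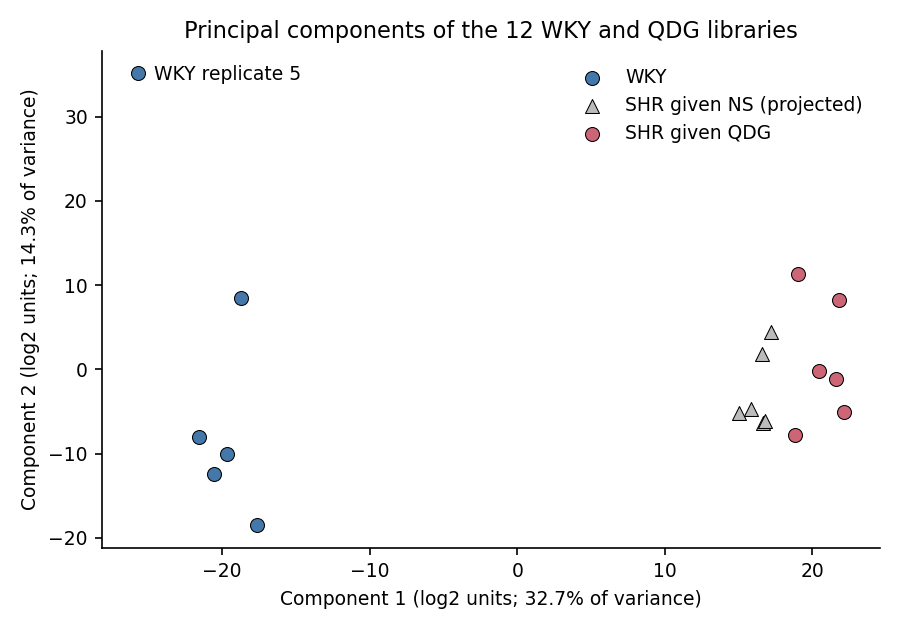
Scores of the libraries on the first and second principal components of log2(FPKM + 1) over 16765 genes, in log2 units, computed on the 6 WKY and 6 QDG libraries, with the 6 SHR libraries given NS projected (triangles). Component 1 separates WKY (-25.7 to -17.7) from QDG (18.8 to 22.2), and component 2 separates WKY replicate 5 from the rest.

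The comparison asks what still separates the strains in the heart when SHR is treated. Of the 16765 genes, 3126 differed between QDG and WKY (18.6% of those tested), by limma with Benjamini-Hochberg adjustment over all genes and a threshold of 0.05. Higher in treated SHR were 1731 genes (10.3% of those tested) and lower were 1395 (8.32%). The 6 QDG values lay wholly above the 6 WKY values for 973 genes (5.8%) and wholly below for 794 (4.74%), together 1767 genes or 10.5% of those tested. Of these, 1726 were also called by limma, and 41 were not, with adjusted p from 0.0509 to 0.293. The remaining 1400 called genes had overlapping groups and smaller differences, with a median absolute log2 fold change of 0.31 against 0.46 for the called genes without overlap.

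Most of the differences were modest. Called genes had a median absolute log2 fold change of 0.38, with 0.22 at the 10th percentile and 0.87 at the 90th percentile, and the median over all genes tested was 0.12. At 1.5-fold or more, 713 called genes were left, 362 higher and 351 lower in treated SHR. At 2-fold or more there were 224 (1.34% of those tested), 113 higher and 111 lower, and the groups did not overlap for 204 of them. At 4-fold 42 remained past the line, of which 28 were higher and 14 lower. At 8-fold the 12 remaining genes were 9 higher and 3 lower. Adding 1 before taking logs shrinks the fold of genes at low levels. With a pseudocount of 0.1 in place of 1, the called genes of 2-fold or more numbered 397, and with 0.01 they numbered 428.

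Gaps between the groups can also be described in the raw values, without a pseudocount. For 126 of the 16765 genes tested the lowest QDG library exceeded 1.5 times the highest WKY library. For 115 the lowest WKY library exceeded 1.5 times the highest QDG library. Genes that passed the filter through 1 group alone are among those counted, and their part was not separated, so these counts are no support. At 2 times these counts were 64 and 59, and at 4 times 32 and 17. The sides were close in number at the narrower gaps and apart at the widest, and this difference in number was not tested.

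**Figure D2:**
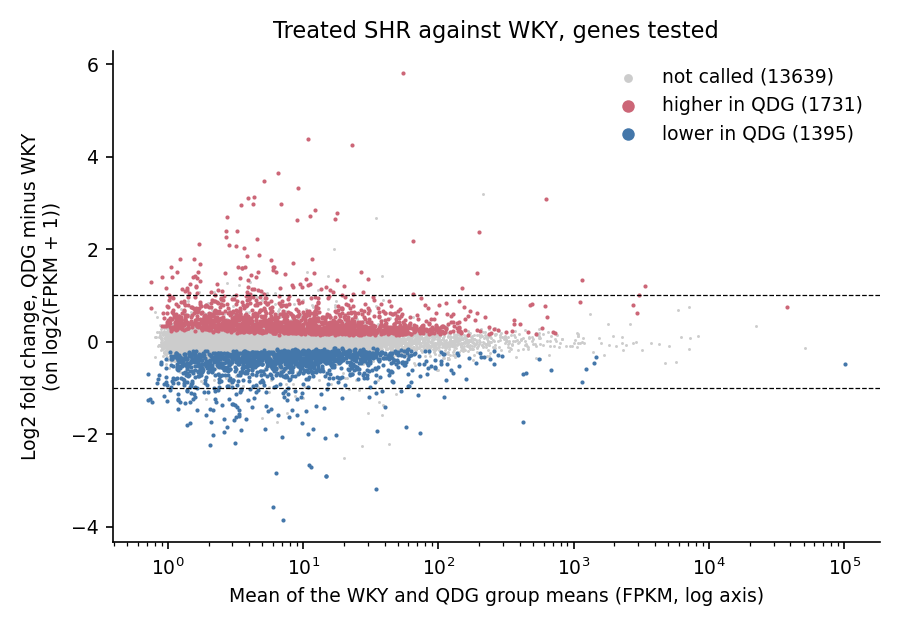
Log2 fold change of QDG minus WKY on log2(FPKM + 1) for the 16765 genes tested, against the mean of both group means in FPKM on a log axis, with dashed lines at 2-fold. Called genes, 1731 higher and 1395 lower in QDG, lie over the whole range of levels, and most lie within the dashed lines.

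The more frequent direction depended on scaling. Of the called genes 55.4% were higher in treated SHR in the values as deposited. After median centring there were 1889 higher and 1638 lower, and after quantile normalization 1873 higher and 1761 lower. When each library was rescaled to its total without the 10 most abundant genes, 1471 were higher and 1592 lower, so that the majority turned to the lower side. That alternative was added after the data were seen, and it moved the median log2 fold change of all genes from 0.01 to -0.01. With library weights the count rose to 3996, 2385 higher and 1611 lower.

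How far the data bound the difference in log2(FPKM + 1) can be read from the confidence intervals. At low levels a difference within 1.5-fold on this scale can be a larger fold in FPKM, so there the bounds on FPKM are looser. For 14186 genes (84.6%) the 95% interval of the log2 difference lay within 1.5-fold in either direction. Of these, 1695 were called, so small differences on this scale were resolved. For 338 genes (2.02%) the interval lay wholly beyond 1.5-fold, 176 on the higher side and 162 on the lower. For 1148 genes that were not called the interval reached 1.5-fold or more, so the data do not bound the difference of these genes below that size.

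The 4 genes given by identifier are the Ensembl genes with the largest called log2 fold changes, 2 per direction. They were taken among genes without overlap, above 0 FPKM in all 12 libraries and averaging at least 5 FPKM in whichever group was higher, conditions that 612 higher and 441 lower genes met. Their fold sizes are therefore the largest by choice.

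ENSRNOG00000051831 had a lowest value of 1.01, a median of 1.28 and a highest value of 1.71 FPKM in WKY. In treated SHR its lowest, median and highest values were 34.7, 43.3 and 66.4 FPKM. The lowest QDG library stood 20.3 times above the highest WKY library, and QDG replicate 5 was the highest of its group. The means were 44.8 ± 11.7 FPKM in QDG and 1.35 ± 0.290 in WKY (SD, n = 6 each). On the log2 scale QDG was higher by 4.26 (SE 0.14, limma adjusted p = 5.6e-11). SHR given NS lay at 37.0 ± 10.2 FPKM (SD, n = 6), from 23.5 to 52.9, a range that overlaps that of QDG.

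ENSRNOG00000019050 was close to absent in WKY, with 0.0479, 0.0689 and 0.138 FPKM as lowest, median and highest values. In treated SHR the same measures were 8.56, 13.6 and 16.8 FPKM, and the lowest QDG library stood 61.8 times above the highest WKY library. The means were 13.0 ± 3.14 FPKM in QDG and 0.0830 ± 0.0329 in WKY (SD, n = 6 each). The log2 fold change was 3.66 (SE 0.13), and 6.14 and 7.15 with pseudocounts of 0.1 and 0.01. This gene is one of the 62 that passed the filter through QDG alone, so its difference is a description with no test. SHR given NS lay at 11.6 ± 2.35 FPKM (SD, n = 6), between 8.70 and 14.1.

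In the other direction, ENSRNOG00000060629 had lowest, median and highest values of 46.8, 58.1 and 99.3 FPKM in WKY and of 4.04, 5.71 and 8.92 FPKM in treated SHR. The lowest WKY library stood 5.25 times above the highest QDG library, and WKY replicate 5 was the highest of all. The means were 63.6 ± 18.5 FPKM in WKY and 6.06 ± 1.76 in QDG (SD, n = 6 each). The difference in log2 values was -3.19 (SE 0.19, limma adjusted p = 1.3e-07), and -3.05 without WKY replicate 5. SHR given NS lay at 6.52 ± 1.91 FPKM (SD, n = 6).

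ENSRNOG00000058896 had lowest, median and highest values of 18.1, 21.9 and 56.8 FPKM in WKY, where replicate 5 held the highest value and the others reached at most 23.1. In treated SHR the values were 1.67, 2.32 and 3.64 FPKM, so the groups lay 4.97-fold apart at their closest. The means were 26.9 ± 14.8 FPKM in WKY and 2.47 ± 0.710 in QDG (SD, n = 6 each). The difference in log2 values was -2.91 (SE 0.24, limma adjusted p = 4.5e-06). Leaving out each of the 12 libraries in turn gave -3.002 to -2.68, where -2.68 is the value without WKY replicate 5. SHR given NS lay at 1.84 ± 0.280 FPKM (SD, n = 6).

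Against SHR given NS, none of these 4 genes was called in QDG, where 0.328% of the same genes were called in the fit of all 18 libraries. The log2 fold changes of QDG minus SHR were 0.28 (SE 0.17, limma adjusted p = 0.616) for ENSRNOG00000051831 and 0.14 (SE 0.14, limma adjusted p = 0.778) for ENSRNOG00000019050. They were -0.09 (SE 0.20, limma adjusted p = 0.920) for ENSRNOG00000060629 and 0.27 (SE 0.21, limma adjusted p = 0.694) for ENSRNOG00000058896. Each of these is far smaller in size than the same gene's log2 fold change against WKY, and a p above the threshold does not show that the SHR groups were equal.

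**Figure D3:**
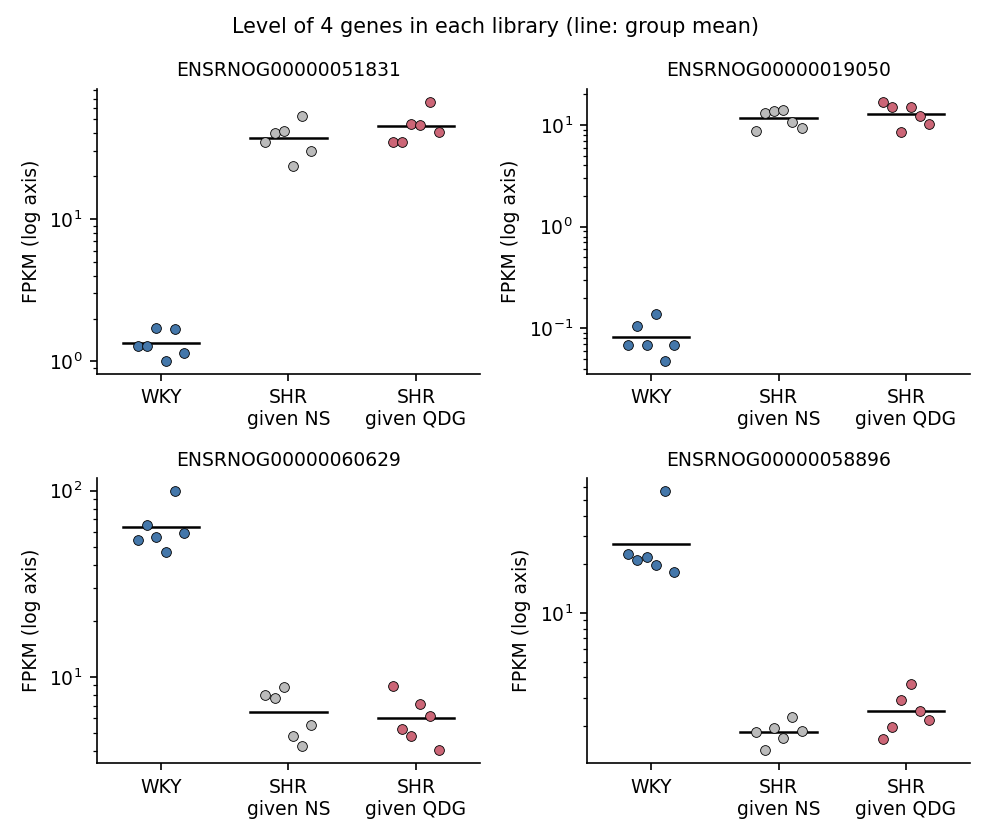
FPKM on a log axis of the 4 genes given by identifier in the 18 libraries (points; 6 of WKY, 6 of SHR under NS, 6 of SHR under QDG), with the group mean as a line. In each panel the QDG libraries overlap the SHR libraries given NS and are clear of all WKY libraries, and WKY replicate 5 is the highest point of both lower panels.

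A small set of genes was near absence in one group and present in the other, and all 13 of them are among those that passed the filter through 1 group alone. In 8 genes, 6 of Ensembl and 2 of NONCODE, every WKY library was under 0.1 FPKM and every QDG library at or above 1 FPKM. Their QDG means ran from 1.497 to 10.3 FPKM with a median of 4.46, and 4 of the 8 were listed at 0 in every WKY library. In SHR given NS the same genes had means of 0.966 to 10.1 FPKM with a median of 4.49, and no single value below 0.671. The reverse pattern held for 5 genes, 3 of Ensembl and 2 of NONCODE, with WKY means of 1.43 to 14.1 FPKM and no QDG value above 0.0884. In SHR given NS these 5 had means of 0 to 0.0602 FPKM, and no value above 0.123. No fold is given for genes listed at 0 in a group. Whether reads were counted by strand is unknown here, so a gene and an overlapping or antisense neighbour may share reads.

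The 42 genes called at 4-fold or more comprised 21 Ensembl and 7 NONCODE genes on the higher side and 9 Ensembl and 5 NONCODE genes on the lower side. The groups did not overlap for 27 of the 28 higher and 13 of the 14 lower genes. Of the 42 genes, 18 passed the filter through 1 group alone. For these, low level in the other group and absence of overlap were set by the filter, so neither is a result. The higher genes had a median level of 0.547 FPKM in WKY, 11.3 in SHR given NS and 11.6 in QDG, taken over the group means. Low level in WKY was thus common among them, in part through the filter. The highest group means among the 28 were 128 FPKM in WKY and 1127 in QDG, which need not belong to the same gene. For the lower genes the medians were 17.0 FPKM in WKY, 1.72 in SHR given NS and 2.12 in QDG. The log2 fold change of QDG minus SHR among the 28 higher genes ran from -0.39 to 1.08 with a median of 0.06, and among the 14 lower genes from -0.12 to 0.82 with a median of 0.01.

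The wider set of called genes showed the same levels side by side. The genes higher in treated SHR had a median log2 fold change of 0.35 for QDG minus WKY and 0.32 for SHR minus WKY, and 0.02 for QDG minus SHR. The genes lower in treated SHR had medians of -0.40, -0.40 and -0.01 for the same contrasts. Median levels of the higher genes were 7.19 FPKM in WKY, 9.75 in SHR given NS and 9.97 in QDG, and those of the lower genes were 8.29, 5.77 and 5.51 FPKM. Among called genes of 2-fold or more, the higher ones had median levels of 1.41, 6.55 and 7.08 FPKM and the lower ones 5.76, 1.71 and 1.70 FPKM in the same order. Both SHR groups are set against the same WKY libraries, and the genes were chosen on QDG against WKY, so these medians are a description with no test.

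Another 38 genes differed by 2-fold or more on average without being called, 20 higher and 18 lower, with log2 fold changes from -2.51 to 3.20. The groups overlapped for 36 of them. Their values scattered widely between libraries of one group: the median SD of log2(FPKM + 1) was 1.74 in WKY and 1.49 in QDG, against 0.19 and 0.21 for the called genes of 2-fold or more. Leaving out 1 library brought 5 of the 38 past the threshold, 3 of them when that library was WKY replicate 5.

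Ensembl genes were called more often than NONCODE genes, 2506 of 12178 (20.6%) against 620 of 4587 (13.5%). Ensembl calls were mostly higher in treated SHR, 1437 higher and 1069 lower, and NONCODE calls were 294 higher and 326 lower. The majority of Ensembl calls was lost when the 10 most abundant genes were left out of the scaling, with 1232 higher and 1252 lower, while NONCODE calls then stood at 239 higher and 340 lower. Level and precision moved with the catalogue. The median SE was 0.08 for Ensembl and 0.12 for NONCODE genes, and 1856 NONCODE and 1497 Ensembl genes lay in the lowest of 5 equal bins of mean level. Their part in the difference between catalogues was not tested.

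Within bins of level the catalogues came closer as the level rose. In the lowest bin (up to 1.92 FPKM) 17.7% of Ensembl and 9.48% of NONCODE genes were called. In the middle bin (3.89 to 7.51 FPKM) the shares were 17.5% and 15.2%, and in the highest bin (from 16.4 FPKM) they were 25.7% and 24.8%. The majority of higher calls among Ensembl genes was largest in that bin, with 507 higher and 283 lower. In the lowest bin it was 145 against 120. Among NONCODE genes the lowest bin held 74 higher and 102 lower calls and the highest bin 40 higher and 30 lower. These directions are those of the values as deposited, and the majority over all Ensembl calls depended on scaling. None of the differences between bins was tested.

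**Figure D4:**
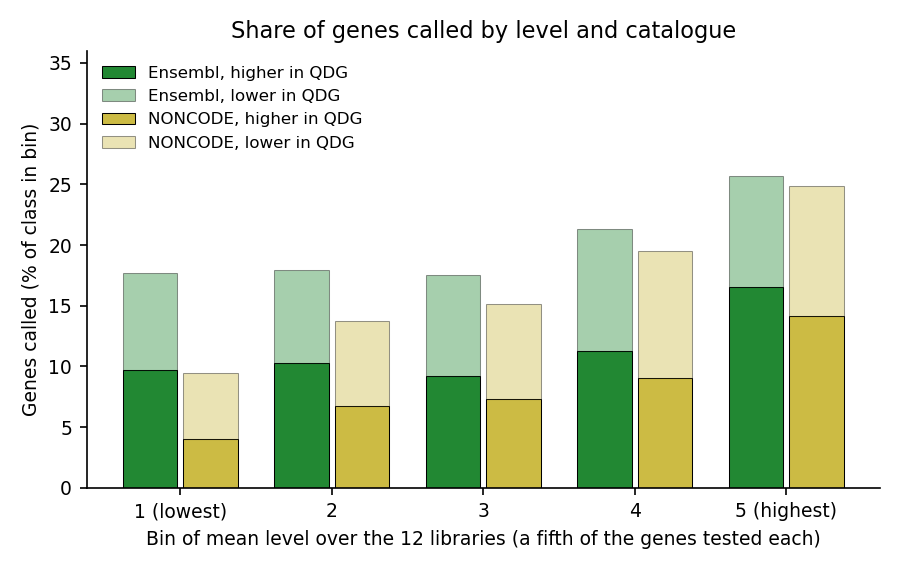
Percent of Ensembl and NONCODE genes called between QDG and WKY in each of 5 equal bins of mean level, with the part higher in QDG in full colour and the part lower in QDG in pale colour. The catalogues differ in the lowest bin (17.7% and 9.48%) and lie close together in the highest (25.7% and 24.8%).

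A few very abundant genes, all of Ensembl, shaped the composition of the libraries. The most abundant gene took 12.8%, 13.5% and 14.0% of all FPKM in QDG as lowest, median and highest share, and 16.02%, 19.4% and 21.1% in WKY. Every QDG library lay below every WKY library. The means were 13.5% ± 0.430 and 18.7% ± 2.17 (SD, n = 6 each), a difference of -5.23 percentage points (two-sided exact permutation p = 0.00216, the smallest this design can give, and 0.00974 after Benjamini-Hochberg adjustment over 9 library measures). Tested as a single gene, its log2 value differed by -0.47 (SE 0.09, limma adjusted p = 0.0016).

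The gene of abundance rank 3 moved in the opposite direction. It took 6.56%, 7.45% and 8.72% of FPKM in QDG as lowest, median and highest share, and 3.59%, 4.34% and 5.34% in WKY, again without overlap. The difference was 3.005 percentage points (two-sided exact permutation p = 0.00216, adjusted 0.00974), and the log2 fold change 0.74 (SE 0.12, limma adjusted p = 0.00046). Without WKY replicate 5 the log2 fold changes of ranks 1 and 3 were -0.49 and 0.75.

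The genes of rank 2 and 4 overlapped between the groups. Rank 2 took 7.76% ± 1.61 in QDG and 8.54% ± 2.04 in WKY (SD, n = 6 each; two-sided exact permutation p = 0.491, adjusted 0.737). Without WKY replicate 5 the difference in this share moved from -0.78 to -0.081 percentage points and the log2 fold change from -0.14 to -0.015. Rank 4 took 3.91% ± 0.517 in QDG and 3.25% ± 1.05 in WKY (SD, n = 6 each; two-sided exact permutation p = 0.201, adjusted 0.453). WKY replicate 5 held the highest share of rank 2, 12.04%, and the lowest of rank 4, 1.41%, where the other WKY libraries ran from 6.49% to 9.65% and from 2.69% to 4.33%. Without it the log2 fold change of rank 4 moved from 0.34 (SE 0.21, limma adjusted p = 0.31) to 0.14 (SE 0.12, limma adjusted p = 0.49).

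The genes of abundance rank 7 and 10 just missed the threshold, with groups that did not overlap in FPKM. Rank 7 took 1.39% ± 0.273 in QDG and 0.878% ± 0.322 in WKY, and rank 10 took 1.15% ± 0.163 and 0.751% ± 0.258 (SD, n = 6 each). As shares the groups met: the highest WKY and lowest QDG shares were 1.15% and 1.13% for rank 7 and 0.976% and 0.955% for rank 10. The log2 fold changes were 0.75 (SE 0.25, limma adjusted p = 0.052) and 0.69 (SE 0.23, limma adjusted p = 0.053). In both genes WKY replicate 5 was the lowest library, at 0.366% and 0.302%. Without that library both were called, at log2 fold changes of 0.54 (SE 0.17, limma adjusted p = 0.044) and 0.47 (SE 0.13, limma adjusted p = 0.019).

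**Figure D5:**
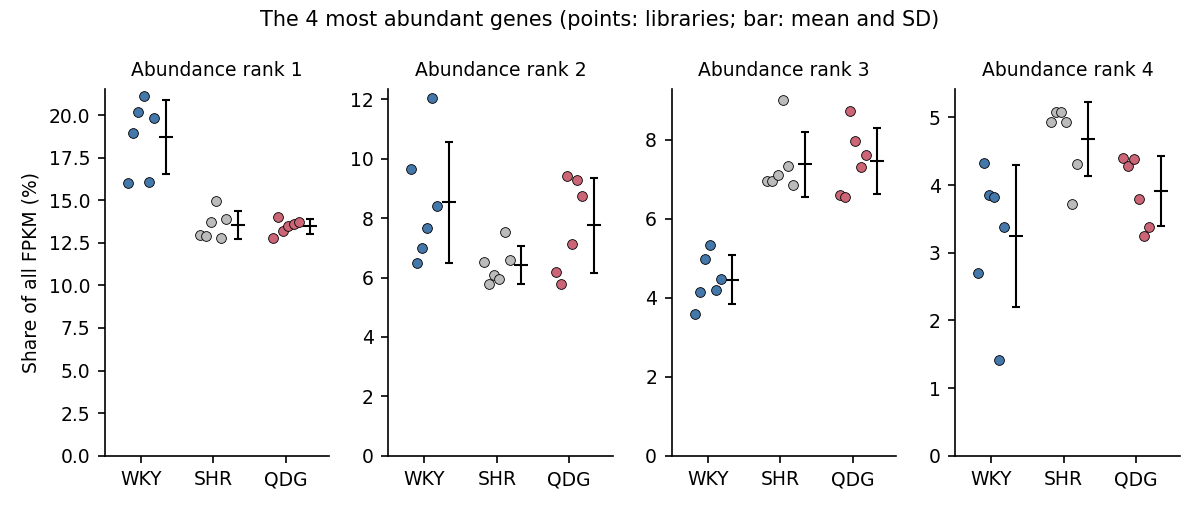
Percent of all FPKM taken by each of the 4 most abundant genes (ranked by mean over the WKY and QDG libraries) in the 6 libraries of each group, with the group mean and SD as a bar. Ranks 1 and 3 separate QDG from WKY without overlap, with SHR given NS at the level of QDG, and ranks 2 and 4 overlap.

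For the remaining measures of the libraries no difference passed the threshold, which does not show that the groups were equal. The 10 most abundant genes together took 39.8% ± 2.30 in QDG and 41.1% ± 2.40 in WKY (SD, n = 6 each; two-sided exact permutation p = 0.353, adjusted 0.635). NONCODE genes took 6.78% ± 0.341 and 7.06% ± 0.286 (SD, n = 6 each; two-sided exact permutation p = 0.147, adjusted 0.442). For the sum of FPKM and the numbers of genes at 0 and at 1 FPKM or more, the adjusted exact p ran from 0.768 to 0.835.

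The called genes carried a sizeable part of all FPKM, a measure scaled to gene length. The genes higher in treated SHR together took 11.5% ± 0.915 of FPKM in WKY, 18.5% ± 0.583 in SHR given NS and 17.9% ± 0.741 in QDG (SD, n = 6 each). Within these shares the gene of abundance rank 3 alone took 4.46% ± 0.626, 7.37% ± 0.821 and 7.46% ± 0.831 (SD, n = 6 each). The genes lower in treated SHR took 23.9% ± 2.09, 17.2% ± 0.716 and 17.1% ± 0.506, and without the most abundant gene 5.21% ± 0.183, 3.70% ± 0.134 and 3.64% ± 0.213 (SD, n = 6 each). Since the genes were chosen by their difference between QDG and WKY, these shares describe their weight and are no test.

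The libraries of one group differed little in most genes. The median SD of log2(FPKM + 1) was 0.13 in QDG, 0.15 in WKY and 0.13 in SHR given NS. WKY had the larger SD in 58.3% of the genes, and in 47.3% when WKY replicate 5 was left out, with a median of 0.13. Without that library 3290 genes were called, 1827 higher and 1463 lower, of which 2818 were among the 3126. Without QDG replicate 4, which listed the fewest genes at 0, 2931 were called, 1517 higher and 1414 lower. Whichever of the 12 libraries was left out, 2297 of the 3126 genes were called every time, 1244 higher and 1053 lower, and so were 216 of the 224 genes of 2-fold or more.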

How the data were processed

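RNA of rat hearts was extracted with Trizol, depleted of rRNA and sequenced from NEB libraries, per the labels' protocols. The deposited values are taken as FPKM normalized by the authors. The headers name no unit, and it was read from values that are not whole and from sums that differ between libraries. A TPM table with some genes left out cannot be told apart from it. The submitters' processing notes name limma. The aligner, counter, build, annotation and strand setting were not given in the sources used here.

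From these FPKM, log2(FPKM + 1) was tested with limma 3.58.1 for genes that reached 1 FPKM in 6 or more of the 12 libraries (R 4.3.3, statmod 1.5.0; intensity trend, robust moderation, 1 mean per group, two-sided, Benjamini-Hochberg, threshold 0.05). SHR contrasts come from the same model over 18 libraries. Library measures were compared by exact permutation tests over 924 divisions (Python 3.11.15, scipy 1.17.1). The script was tested on simulated data. Groups come from sample titles. Absolute depth is unknown, so no counting intervals are given.

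The comparison, lists and rules were chosen with earlier results of these data known. The rule for named genes used symbols where available, and otherwise the 2 Ensembl identifiers per direction described in the report. The 16 gene lists and 18 marker lists fixed for the heart, and the share of mitochondrially encoded genes, were not tested, as 0 identifiers had a symbol. Alternatives changed scaling, moderation, library weights, filter, pseudocount, libraries fitted, replicate block and each library left out.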

Additional observations from a re-analysis of the deposited data

Results flagged for a closer look

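Of 30 sets of 6 library values, 4 held a library far from the other 5, a distance that about 1 in 20 such sets reach by chance. WKY replicate 5 held 99.3 FPKM of ENSRNOG00000060629, against 46.8 to 65.1 in the other WKY libraries, and 56.8 FPKM of ENSRNOG00000058896, against 18.1 to 23.1. QDG replicate 5 held 66.4 FPKM of ENSRNOG00000051831, against 34.7 to 46.5 in the other QDG libraries. The number of genes listed at 0 was 6245 in QDG replicate 4 and 6520 to 6662 in the remaining QDG libraries.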

How the results depend on the processing

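Apart from the settings named next, no alternative moved a count of called genes by more than 1.5 times. The 4 named genes kept direction and call in 92 of 92 alternative fits. They were chosen from these data as the largest called folds, and ENSRNOG00000019050 passed the filter through QDG alone. Their kept calls are therefore no support. A filter at 5 FPKM tested 8950 genes and called 2082, against 3126 called of 16765 in the main fit. Of the 2082, 899 were lower and 111 reached 2-fold, and 1148 of the genes tested were without overlap. How far the smaller number of genes tested sets these counts was not tested. Requiring 1.5-fold left 713 genes, by its construction. Pseudocounts of 0.1 and 0.01 raised the called genes of 2-fold or more from 224 to 397 and 428, since a smaller pseudocount enlarges folds of low genes. Leaving out each library in turn gave 2571 to 3290 called genes (2525 to 2818 of them among the 3126), 1386 to 1854 higher, 1167 to 1463 lower, 220 to 230 of 2-fold or more and 1850 to 2134 without overlap. With the same genes tested, the count without overlap cannot fall below its main value of 1767, so its range is no check. All 18 libraries gave 3642 genes, library weights 3996 and no filter 3474, which shared 3030, 3048 and 2605 genes with the 3126. The 108 alternative values of library measures kept their side of the threshold. After each gene's group mean was subtracted from the log2 values, same-numbered QDG and WKY libraries correlated at -0.06 to 0.20. Of the 6 QDG libraries, 1 correlated best with the WKY library of its own number. The numbers were therefore not taken to pair the libraries. A replicate block gave 3084 genes, 2795 of them among the 3126. The median SE was 0.11 in the lowest bin of level and 0.07 in the highest; the cause was not tested, as absolute depth is unknown.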
